A study of Homo sapiens with 6 samples.

Results

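The response of MDA-MB-231 cells to the high dose of rebastinib (Reb) was described from 2 of the 6 libraries of the series, one from cells kept for 48 h in 5 μM Reb and one from cells kept for 48 h in the vehicle, DMSO. Of the 34157 gene symbols in the table of the dose experiment, the 15544 with a mean of at least 1 CPM (a count scaled to a library of 1000000) over both libraries were compared. MDA-MB-231 is an established human line from a triple-negative breast cancer, a class of tumour that lacks the estrogen and progesterone receptors and HER2. The study asked what the kinase CDK16 does in this cancer, and also sequenced cells with CDK16 hairpins, a scramble control and cells given 1 μM Reb. Each condition had 1 library, so no difference below has a replicate check and no p-value is given. Intervals are 95% Clopper-Pearson intervals of the ratio of both libraries' counts and cover counting error only. Copies of 1 molecule made by PCR cannot be recognised in these counts.

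Reb is a kinase inhibitor that was developed against BCR-ABL and is also known for binding TIE2. The study used it against CDK16, a PCTAIRE kinase that cyclin Y activates. Dividing cells transcribe replication genes from late G1 into S phase, largely through E2F factors, and mitotic genes in G2 and M, largely from promoters with CCAAT boxes and a cell cycle genes homology region (CHR). MDA-MB-231 cells are also known for a high basal activity of NF-kB and of the RAS and MAPK pathway, which drive inflammatory cytokines and immediate-early genes. In bulk RNA, fewer cells of a kind and less RNA per cell cannot be told apart.

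The DMSO library held 50303269 counts and the Reb 5 μM library 37655548. The 100 genes with the most counts took 24.3% of the DMSO library and 35.3% of the Reb 5 μM library. The scaling therefore mattered. The trimmed mean of M values (TMM), which sets the bulk of genes level, gave factors of 1.256 for DMSO and 0.796 for Reb 5 μM. Scaling by library totals instead moved the fold changes by about -0.66 on the log2 scale, which is the log2 ratio of these factors. A gene is said below to have risen or fallen where it differed by at least 2-fold under both scalings, and log2 fold changes are those under TMM unless library totals are named.

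The markers of the line were present in both libraries, among them VIM, a mesenchymal filament, with 91270 counts in DMSO and 34429 in Reb 5 μM, and CD44, a hyaluronan receptor, with 17339 and 16817. ESR1 had 2 and 0 counts and PGR 4 and 0. Of 10 luminal and HER2 markers 6 passed the filter, of which KRT19 fell and EPCAM rose. Of 13 markers of blood, endothelial and stromal cells 5 passed the filter and 2 fell, PECAM1 from 154 to 4 counts and CDH5 from 122 to 11, both endothelial junction genes. CD3E of T cells, HBA1 of red cells and LUM of fibroblasts were at 0 in both libraries. CD68, a lysosomal protein of macrophages, had 17682 and 19331 counts. Of the 8 line markers, CAV1, a caveolae coat protein with 5489 and 607 counts, and EGFR, the EGF receptor with 18029 and 2265 counts, fell, by 2.10 and 1.92 on the log2 scale. None rose.

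A large part of the transcriptome differed between both libraries. Under TMM, 4225 genes (27.2%) were at least 2-fold lower in the Reb 5 μM library and 3672 (23.6%) at least 2-fold higher. Under library totals, 6619 (42.6%) were lower and 1935 (12.4%) higher, so the share of the higher among all genes past 2-fold was 46.5% under TMM and 22.6% under library totals. Each of the 4225 lower genes under TMM was also lower under library totals. Each of the 1935 higher genes under library totals was also higher under TMM. That makes 6160 genes (39.6%) past 2-fold in both. This nesting follows from the shift between the scalings and is not a check of either. A fall was in effect set by TMM alone and a rise by library totals alone, so the rule is not symmetric under either scaling. The median log2 fold change over all 15544 genes was -0.07 under TMM and -0.72 under library totals. The counts of members given below are read against 27.2% fallen and 12.4% risen. A gene under 1 CPM in 1 library had to differ to pass the filter, which holds for 461 of the 1935 risen genes (under 1 CPM in DMSO, by library totals) and 1153 of the 4225 fallen ones (under 1 CPM in Reb 5 μM).

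For scale, the library of cells given 1 μM Reb, compared with the same DMSO library, had 305 genes (1.94%) at least 2-fold lower and 192 (1.22%) higher of 15730 under TMM. The DMSO library of this experiment and the scramble library of the hairpin experiment, both controls from MDA-MB-231 cells but from separate experiments and tables, differed by at least 2-fold in 1939 genes (12.3%) that were lower in DMSO and 2066 (13.1%) that were higher, of 15781. The difference between the 2 control libraries was thus larger in number than that at 1 μM and smaller than that at 5 μM.

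**Figure D1:**
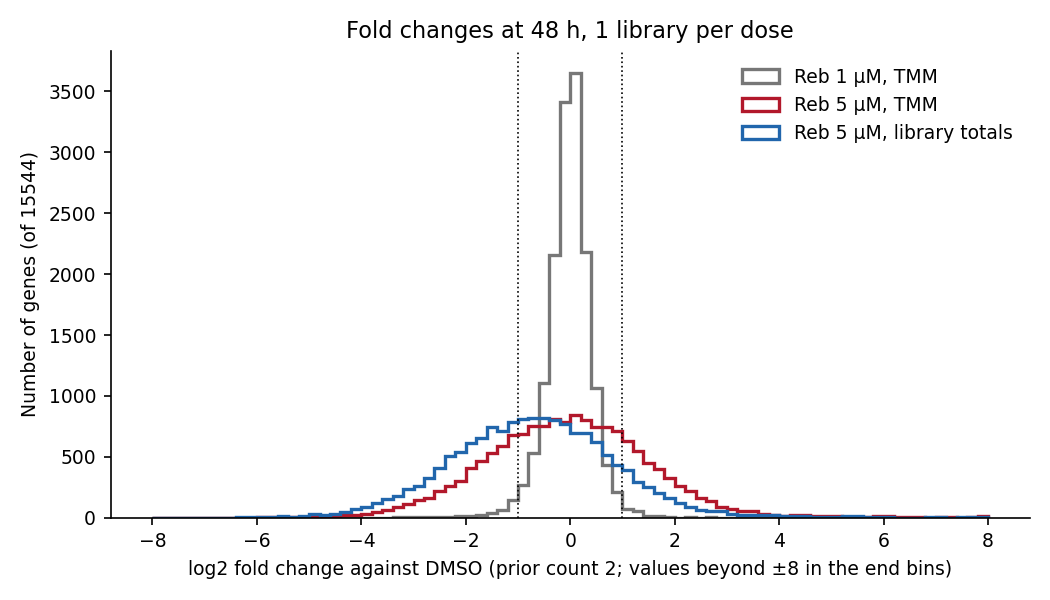
Histogram of log2 fold changes against DMSO for the 15544 genes, in bins on the x axis with the number of genes on the y axis. The grey line is Reb 1 μM, the red and blue lines are Reb 5 μM under TMM and under library totals, and the dotted lines mark 2-fold. The 5 μM distributions are broad, and the blue one sits to the left of the red one by 0.66.

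Mitotic genes fell together. TOP2A, the topoisomerase that untangles sister chromatids (chromosome 17, 40388516 to 40417950, minus strand, GRCh38), had 26854 counts in DMSO, 21026 in Reb 1 μM and 730 in Reb 5 μM. CCNB1, the cyclin that drives entry into mitosis (chromosome 5, 69167010 to 69178245, plus strand), had 9706, 7991 and 378. In both genes the 1 μM library lay near DMSO and the 5 μM library far below it. TOP2A was 17.4-fold lower in Reb 5 μM under TMM, with a log2 fold change of -4.12 (interval -4.23 to -4.02), and 27.5-fold lower under library totals. CCNB1 was 12.1-fold lower (-3.60, interval -3.76 to -3.46) and 19.1-fold lower under library totals.

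The stretches before the start of 4 genes of this list are shown because their letters can be set beside the fold changes. TOP2A, ASPM, which holds spindle poles, and MKI67, the Ki-67 antigen that coats mitotic chromosomes, all fell. CDK1, the kinase that CCNB1 activates, did not pass 2-fold. The sequences are from RefSeq on GRCh38.p14, run 5′ to 3′ toward the gene, and end at the gene start of RefSeq or of the deposited table, whichever comes first. Capitals mark CCAAT boxes (CCAAT, or ATTGG on the other strand) and CHR letters (TTTGAA or TTCGAA, or TTCAAA on the other strand, TTCGAA being its own complement).
TOP2A, chr17:40417951-40418146, minus strand: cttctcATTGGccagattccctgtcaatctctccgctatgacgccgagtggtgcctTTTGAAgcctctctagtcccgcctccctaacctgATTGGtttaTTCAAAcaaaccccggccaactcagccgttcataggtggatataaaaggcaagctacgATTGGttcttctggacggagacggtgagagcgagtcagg
ASPM, chr1:197146695-197146919, minus strand: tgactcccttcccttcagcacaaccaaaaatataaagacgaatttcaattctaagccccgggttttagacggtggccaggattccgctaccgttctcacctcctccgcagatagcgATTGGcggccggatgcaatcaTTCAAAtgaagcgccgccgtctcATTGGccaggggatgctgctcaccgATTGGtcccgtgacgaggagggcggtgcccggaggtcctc
MKI67, chr10:128126424-128126673, minus strand: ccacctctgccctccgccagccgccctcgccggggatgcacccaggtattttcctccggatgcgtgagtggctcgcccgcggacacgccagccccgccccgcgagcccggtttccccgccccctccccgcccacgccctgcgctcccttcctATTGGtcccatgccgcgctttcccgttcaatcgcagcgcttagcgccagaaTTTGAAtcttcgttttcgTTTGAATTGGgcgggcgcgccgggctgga
CDK1, chr10:60778081-60778330, plus strand: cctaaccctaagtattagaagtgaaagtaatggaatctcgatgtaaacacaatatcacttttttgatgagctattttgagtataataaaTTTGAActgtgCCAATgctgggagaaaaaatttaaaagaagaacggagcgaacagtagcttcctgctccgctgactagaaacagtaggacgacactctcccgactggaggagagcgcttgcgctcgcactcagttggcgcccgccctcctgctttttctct

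The printed stretch of TOP2A holds 3 CCAAT boxes and 2 CHR matches, that of ASPM 3 and 1, that of MKI67 2 and 2, and that of CDK1 1 and 1. In MKI67 the CCAAT box nearest the start shares a base with a CHR match. The 250 bases before the RefSeq start of CCNB1 hold 2 CCAAT boxes and no CHR match. Among genes not printed, KIF18B and AURKB fell, and their windows hold 2 and 1 CCAAT boxes and no CHR match. PRC1 did not pass 2-fold, and its window holds 1 CCAAT box and 1 CHR match, as that of CDK1 does. RefSeq windows were at hand for 78 of the 93 mitotic genes and 10186 of the 15544 tested genes. A CCAAT box was in 66.7% of the mitotic windows and in 35.4% of all tested ones, a CHR match in 39 of the 78 mitotic ones and 9.73% of the tested ones, and both in 41.0% and 4.08%. Over the 27305 RefSeq windows of this length, whether tested or not, the shares were 33.0%, 14.6% and 5.24%. Among the mitotic genes the median log2 fold change was -1.76 for the 39 with a CHR match and -2.20 for the others, while over all tested genes it was -0.35 with a CHR match and -0.11 without. A match is a description of the letters only.

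Of the 93 mitotic genes, all above the level filter, 66 fell and 1 rose, and 85 had a log2 fold change below 0. Their median was -1.82 under TMM and -2.47 under library totals, beside -0.07 and -0.72 for all genes, and their summed share of the library went from 1.62% to 0.377%. The furthest below DMSO were ASPM with 9549 counts in DMSO, 7816 in Reb 1 μM and 171 in Reb 5 μM (26.3-fold lower), AURKB, the kinase of the chromosomal passenger complex, with 3954, 1997 and 78 (23.7-fold lower), and KIF18B, a microtubule-depolymerizing kinesin, with 3411, 2600 and 71 (22.4-fold lower). MKI67 had 103038, 68014 and 5905 counts and was 8.28-fold lower. Some members did not move with these. CDK1 (2857 counts in DMSO and 1145 in Reb 5 μM) had a log2 fold change of -0.24, and -0.90 under library totals. PRC1 is the midzone microtubule bundler that the study describes as a CDK16 substrate. It had 35274 and 19824 counts, with 0.24 under TMM and -0.41 under library totals, so its sign depended on the scaling. G2E3, a ubiquitin ligase named for its G2 expression, was the member that rose, from 442 to 722 counts (1.78, and 1.12 under library totals).

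**Figure D2:**
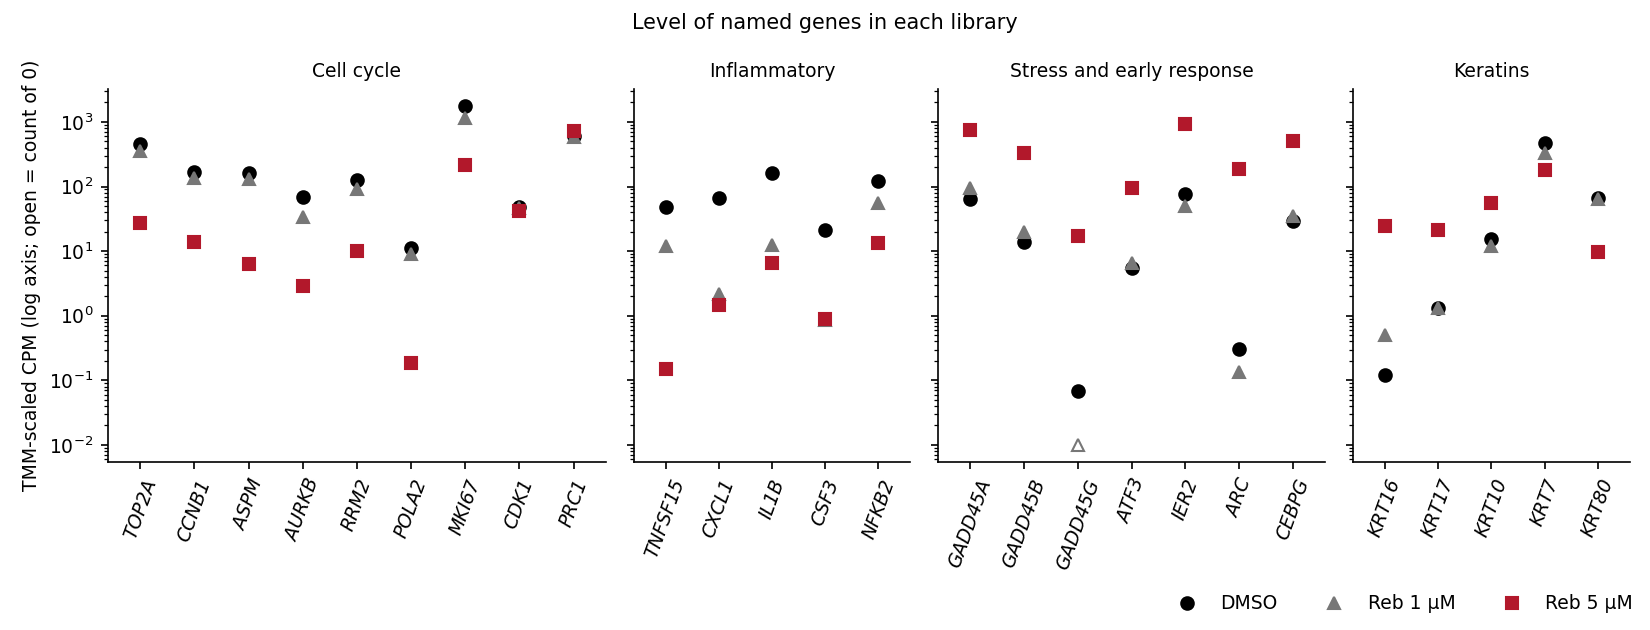
Level of named genes (CPM scaled by TMM over the 3 libraries of the dose experiment, log axis) in DMSO (black circles), Reb 1 μM (grey triangles) and Reb 5 μM (red squares), 1 library each, with open symbols for a count of 0. In the cell cycle panel the red squares lie below the other symbols from TOP2A to MKI67 and beside them for CDK1 and PRC1, and in the stress panel they lie above them.

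Replication genes fell too, with more exceptions. Of 70 tested, 45 fell and 1 rose, with a median of -1.59 under TMM and -2.25 under library totals. POLA2, the accessory subunit of DNA polymerase alpha, had 649 counts in DMSO, 544 in Reb 1 μM and 5 in Reb 5 μM (-5.62, interval -7.57 to -4.71). RRM2, the regulated subunit of ribonucleotide reductase, had 7275, 5352 and 269 (12.8-fold lower). CCNE2, the cyclin that activates CDK2 at the G1 to S transition, had 964, 1719 and 31, and BRCA2, of homologous recombination, had 1006, 1150 and 34. The MCM helicase subunits fell by less, from 1.07 for MCM2 to 2.58 for MCM3 on the log2 scale. PCNA, the polymerase clamp, had 2660 and 975 counts (-0.37). CDCA7 was the one that rose, from 831 to 2533 counts (2.68). The E2F letters TTTCCCGC, TTTGGCGC, TTTCGCGC or TTTGCCGC, on either strand, were in 19 (32.8%) of the 58 windows at hand for this list and 4.57% of the tested windows, and CHR matches in 5.17% and 9.73%. CCAAT boxes were in 56.9% of the replication windows and 35.4% of the tested ones. The median log2 fold change was -1.17 for replication genes with E2F letters and -1.66 for those without. Over all tested genes with a window it was -0.09 with E2F letters and -0.13 without.

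Of the 13 genes that the study followed by qPCR 9 fell and none rose. Besides TOP2A, CCNB1, RRM2 and MKI67, CDK2 went from 4474 to 381 counts (-2.47), CDC25C, the phosphatase that activates CDK1, from 697 to 71 (-2.20), and MCM7 from 9211 to 1947 (-1.17). CDKN1A, the CDK inhibitor p21, went from 1666 to 270 (-1.55) and BAX, a pore-forming apoptosis protein, from 952 to 167 (-1.43). CDKN1B, the inhibitor p27, went from 1408 to 400, which is -0.74 under TMM and -1.39 under library totals. The study's qPCR under Reb covered CDK2, RRM2, TOP2A, MKI67 and MCM7. It measured the other genes in knockdown or overexpression experiments, and reported p21, p27 and Bax as higher after CDK16 knockdown. CDK16 itself had 4996 counts in DMSO, 4609 in Reb 1 μM and 2797 in Reb 5 μM, a log2 fold change of 0.24 (interval 0.17 to 0.31) under TMM and -0.42 under library totals, so its sign depended on the scaling.

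Among kinases that Reb is known to bind and the PCTAIRE family with its cyclins, 16 of 23 found were above the filter, 5 fell and 1 rose, with 3 of the fallen under 1 CPM in Reb 5 μM. SRC went from 1559 to 162 counts (-2.18), TEK, which encodes TIE2, from 142 to 8 (-2.89, interval -4.31 to -2.06), PDGFRB from 417 to 35 (-2.46), KDR from 310 to 67 (-1.12) and CDK18 from 208 to 20 (-2.23). ABL1 had 2993 and 1309 counts (-0.12) and CDK14 694 and 349 (0.08). CDK17 had 2049 and 1863 (0.94, and 0.28 under library totals). LYN, YES1 and ABL2 were at least 2-fold higher under TMM only, by 1.39, 1.18 and 1.09, beside 0.73, 0.52 and 0.44 under library totals. CCNY, cyclin Y, rose from 2633 to 6895 (2.46).

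The list of CDK inhibitors and targets of the transcription factor p53, which holds some DNA damage checkpoint genes, split both ways. It gave 11 fallen and 9 risen of 35 tested, with a median of 0.10. The 3 GADD45 genes, stress sensors that bind CDK1 and p38 activators, rose most. GADD45A had 3759 counts in DMSO, 5618 in Reb 1 μM and 20283 in Reb 5 μM (11.4-fold higher), GADD45B 814, 1166 and 8783 (22.7-fold higher), and GADD45G 4, 0 and 462 (7.18, interval 6.56 to 9.81). CDKN2D, the inhibitor p19, rose from 2436 to 5722 (2.31), while CCNG2, an unconventional cyclin, fell from 510 to 53 (-2.16), TNFRSF10B, the TRAIL receptor DR5, from 2244 to 242 (-2.13), and CDKN2C, the inhibitor p18, from 1466 to 189 (-1.87).

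Of 28 apoptosis genes, 10 fell and 2 rose (median -0.41). Both sides of the BCL2 family were among the fallen. The pore formers BAK1 (777 to 126 counts, -1.54), BOK (932 to 146, -1.59) and BAX and the protective BCL2L1 (8729 to 1620, -1.35) were lower. The BH3-only genes BCL2L11, which encodes BIM, and PMAIP1, which encodes NOXA, rose from 183 to 406 (2.21) and from 2964 to 4710 (1.74). MCL1 had 10409 and 4468 counts (-0.14 under TMM and -0.80 under library totals).

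Inflammatory genes held some of the deepest falls. TNFSF15, a TNF family ligand, had 2860 counts in DMSO, 721 in Reb 1 μM and 4 in Reb 5 μM (-8.01, interval -10.28 to -7.05), the furthest below DMSO of any gene with a mean of at least 5 CPM. CXCL1, a neutrophil chemokine, had 3853, 128 and 40 (44.3-fold lower), IL1B, the cytokine IL-1β, 9469, 742 and 177 (25.2-fold lower), and CSF3, the cytokine G-CSF, 1247, 51 and 24 (23.5-fold lower). In CXCL1, IL1B and CSF3 the 1 μM library was already well below DMSO. Of 26 chemokines and cytokines 13 fell and 1 rose, with a median of -1.07, and their share of the library went from 0.0790% to 0.0100%. Of the fallen, 5 were under 1 CPM in Reb 5 μM, and the risen one was under 1 CPM in DMSO. The median stood 1.01 below that of all genes, and 3.28 below it with a mean of at least 5 CPM. CXCL2 had 662 counts in DMSO, 35 in Reb 1 μM and 304 in Reb 5 μM and CXCL3 684, 32 and 296, so in these genes the 5 μM library lay between the other libraries, with log2 fold changes of -0.05 and -0.13 against DMSO. IL6 had 1800, 95 and 356 counts (-1.26). These 3 were named after their values were seen.

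NF-kB subunits and targets gave 13 fallen and 1 risen of 29, with a median of -0.77. RELB went from 513 to 24 counts (-3.27), NFKB2, the p100 precursor, from 7105 to 367 (-3.20), PTX3, a secreted pattern recognition protein, from 18475 to 1113 (-2.98), and NFKBIE, an inhibitor of NF-kB, from 1844 to 118 (-2.88). NFKB1, the p105 precursor, was the member that rose, from 2285 to 5152 (2.25). IRAK2, the kinase below the IL-1 receptor, went from 685 counts in DMSO and 209 in Reb 1 μM to 4 in Reb 5 μM (-5.95).

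Type I interferon genes, a list that stood at 0.05 in the 1 μM library, gave 26 fallen and 1 risen of 43, with a median of -1.42 under TMM and -2.07 under library totals. Of the fallen, 10 were under 1 CPM in Reb 5 μM. PARP14 went from 1084 to 50 counts (-3.33), SP110 from 1077 to 78 (-2.69), MX1, the antiviral GTPase, from 727 to 78 (-2.13) and SAMD9 from 812 to 94 (-2.02). ISG15, the ubiquitin-like modifier, rose from 772 to 1857 (2.34). The antiviral IFIT genes did not move as one, with IFIT2 at -1.26, IFIT3 at -0.51 and IFIT1 at 1.48 on the log2 scale under TMM.

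Immediate-early genes, which answer growth factors and stress within minutes, moved both ways, and their balance depended on the scaling. Of 43 tested, 13 rose and 7 fell. Under TMM 20 were at least 2-fold higher and 7 lower, with a median of 0.77, and under library totals 13 were higher and 14 lower, with a median of 0.12. In the 1 μM library, against the same DMSO, the median was -0.61 under TMM. ARC, best known as a synaptic gene, had 18 counts in DMSO, 8 in Reb 1 μM and 5018 in Reb 5 μM (511-fold higher, log2 interval 8.54 to 9.95). ATF3 had 320, 388 and 2527 (16.5-fold higher), IER2 4504, 2972 and 25152 (11.8-fold higher), and RHOB, a small GTPase, 240, 208 and 1104 (3.26). EGR1 had 1722, 171 and 5290 counts (2.69) and FOS 626, 106 and 1476 (2.31), so both were lowest at 1 μM and highest at 5 μM. They were named after their values were seen. ETV4 went from 2249 to 181 counts (-2.55), PHLDA1 from 64722 to 6489 (-2.24), DUSP6, the ERK phosphatase, from 4000 to 547 (-1.79), and CYR61, a secreted YAP target, from 43361 to 5302 (-1.96). SPRED2, an inhibitor of the MAPK pathway, rose from 2200 to 4832 (2.21), and SPRY4, another, had 5166 and 6973 (1.51, and 0.85 under library totals). Of 33 YAP and TEAD targets 10 fell and 1, GADD45B, rose (median -0.47).

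The integrated stress and unfolded protein response list gave 11 risen and 6 fallen of 53, and 22 at least 2-fold higher under TMM (median 0.71, and 0.05 under library totals). CEBPG, a partner of ATF4, had 1685 counts in DMSO, 2050 in Reb 1 μM and 13550 in Reb 5 μM (16.9-fold higher). DNAJC3, an inhibitor of eIF2α kinases, rose from 1809 to 4519 (2.39). XBP1, the transcription factor that IRE1 activates by splicing, fell from 5768 to 1133 (-1.27), HERPUD1, of protein degradation at the endoplasmic reticulum, from 1486 to 226 (-1.64), and SDF2L1 from 857 to 139 (-1.54). DDIT3, which encodes CHOP, had 616 and 349 counts (0.25), and ATF4 14770 and 14145 (1.01, and 0.36 under library totals). Known stress targets were thus found on both sides.

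Heat shock proteins gave 3 risen of 35 and none fallen. HSPA1B went from 24595 to 38623 counts (1.73), a value that is uncertain because HSPA1A is nearly identical, CHORDC1 from 5086 to 8006 (1.73) and HSF2 from 1177 to 1835 (1.71). NRF2 targets and ferritin gave 7 risen and 5 fallen of 27. NFE2L2, which encodes NRF2, rose from 2633 to 9789 counts (7.83-fold higher) and KEAP1, which targets NRF2 for degradation, fell from 2609 to 233 (-2.40). FTL, the ferritin light chain (4027 to 9907, 2.37), TXN, thioredoxin (2473 to 5821, 2.31), and GCLM, of glutathione synthesis (1864 to 3811, 2.11), rose. SQSTM1, an autophagy receptor and NRF2 target, fell from 7722 to 1675 (-1.13). None of 4 tested metallothioneins, which bind zinc and copper, passed 2-fold under both scalings, and MT2A, the abundant one, had 114395 counts in DMSO, 26984 in Reb 1 μM and 36086 in Reb 5 μM (-0.59).

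Of 53 lysosome and proton pump genes 10 rose and 3 fell, and 24 were at least 2-fold higher under TMM (median 0.94, and 0.28 under library totals). ASAH1, acid ceramidase, rose from 704 to 2809 counts (3.07), ATP6V0C, a proton pump subunit, from 3134 to 8795 (2.56), and HEXA, a hexosaminidase, from 1167 to 3012 (2.44). NPC1, the cholesterol exporter of lysosomes, fell from 4362 to 861 (-1.26). Autophagy genes split, with 10 fallen and 4 risen of 40. ULK1, the initiating kinase, fell from 1091 to 60 (-3.08) and WIPI1 from 1487 to 103 (-2.76), while ATG14 rose from 1335 to 4527 (2.83) and MAP1LC3B, which encodes LC3B, from 1757 to 3511 (2.07). Of 41 proteasome genes 2 rose and 6 fell (median 0.51).

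KRT16, a keratin of wounded and hyperproliferative epidermis (chromosome 17, 41609778 to 41615899, minus strand), had 7 counts in DMSO, 30 in Reb 1 μM and 657 in Reb 5 μM. It was 143-fold higher in Reb 5 μM under TMM and 94.7-fold higher under library totals (log2 interval 6.58 to 8.95 under TMM), from a DMSO level of 0.111 CPM to 21.9 CPM. KRT17, which neighbours it, had 78, 78 and 580 counts (15.2-fold higher). The 2 genes have near-identical pseudogene copies, so both values are uncertain. KRT14, their relative of basal epidermis, had 26, 53 and 91 counts (2.76, interval 2.24 to 3.57), and KRT5 and KRT6A, below the filter, had 1 count each in DMSO and 23 and 18 in Reb 5 μM. The abundant simple-epithelial keratins did not follow. KRT7 fell from 27892 to 4948 counts (-1.42) and KRT19 from 8689 to 1535 (-1.43), while KRT18 had 19151 and 6021 (-0.59) and KRT8 52200 and 36189 (0.55, and -0.11 under library totals). KRT80 fell from 3909 to 266 (6.95-fold lower). KRT10 rose from 897 to 1500 counts (1.81, and 1.16 under library totals). KRT81, also abundant, had 45855 and 58490 (1.43, and 0.77 under library totals). In all, 5 of 14 tested keratins rose and 3 fell (median 1.06), with 3 of the risen, KRT16, KRT14 and KRT12, under 1 CPM in DMSO. The median stood 1.13 above that of all genes, and 0.53 above it with a mean of at least 5 CPM.

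Epidermal differentiation genes gave 4 risen and 6 fallen of 20, with 3 of the risen under 1 CPM in DMSO and 2 of the fallen under 1 CPM in Reb 5 μM. SFN, the 14-3-3σ protein, was the abundant one that rose, from 15652 counts in DMSO and 18825 in Reb 1 μM to 55349 in Reb 5 μM (7.45-fold higher). EVPL, of the cornified envelope, fell from 12482 to 807 (-2.87), while CNFN, another of its genes, rose from 36 to 76 (2.07). Among desmosome genes JUP fell from 580 to 78 (-1.80) and DSP from 42373 to 9850 (-1.03), and DSG2 (0.26), DSC2 (0.37) and PKP2 (0.15) did not pass 2-fold. Junction genes split, with CGN from 3035 to 262 (-2.45) and CLDN7 from 750 to 93 (-1.92) fallen and EPCAM from 240 to 408 (1.83) risen. Mesenchymal genes gave 6 fallen and 5 risen of 29. The transcription factors SNAI2 (2181 to 7710, 2.90) and SNAI1 (148 to 281, 1.98) rose, while the integrin ITGA5 (6557 to 954, -1.70) and the matrix proteins SPARC (1925 to 283, -1.69) and THBS1 (22019 to 4063, -1.36) fell. Of 30 collagens and laminins 8 fell and 1 rose, with COL27A1 the lowest (2529 to 253, -2.24), and of 42 actin and adhesion genes 9 fell and 2 rose, with VCL, vinculin, the lowest (12340 to 1185, -2.30).

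In metabolism, of 37 cholesterol and SREBP genes 11 fell and 2 rose. MVK fell from 1425 to 140 (-2.26) and ACLY, which makes cytosolic acetyl-CoA, from 11753 to 1290 (-2.11), while MSMO1 rose from 239 to 675 (2.56), as did MYLIP, which encodes a ubiquitin ligase, from 390 to 881 (2.24). LDHA, lactate dehydrogenase A, went from 32538 and 43143 counts in DMSO and Reb 1 μM to 2492 (6.19-fold lower). The glucose transporter SLC2A1 fell from 4873 to 713 (-1.70), and HIF1A, the hypoxia factor, rose from 10039 to 17621 (1.89). Of 38 glycolysis and hypoxia genes 8 fell and 1 rose, and the list's median was 0.30.

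Respiratory chain and ribosomal protein genes moved the other way from the cell cycle lists. Of 77 nuclear-encoded respiratory chain genes 14 rose and 3 fell, and 35 were at least 2-fold higher under TMM (median 0.88, and 0.23 under library totals). NDUFC2 rose from 1085 to 3115 counts (2.59), NDUFA1 from 1643 to 4341 (2.47) and COX6C from 13865 to 33997 (2.37). Of 79 cytosolic ribosomal proteins 16 rose and none fell, and 51 were at least 2-fold higher under TMM (median 1.30, and 0.64 under library totals). RPSA went from 24037 to 49282 counts (2.11), RPL22 from 18727 to 37513 (2.08) and RPL18 from 3428 to 6713 (2.04). These genes have many processed pseudogenes, so their counts are uncertain. Their share of the library went from 2.93% to 4.41%.

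The genes that build ribosomes did not rise with the proteins. Of 59, 17 fell and 3 rose (median -0.27). POLR1A, the large subunit of RNA polymerase I, fell from 8094 to 651 counts (-2.56), MYBBP1A from 11678 to 1001 (-2.47) and UTP20 from 5415 to 558 (-2.20), while NOP56, a box C/D snoRNP core protein, rose from 22884 to 51957 (2.26) and DDX51 from 1345 to 4628 (2.86). Splicing factors gave 11 fallen and 6 risen of 52 (median 0.12). HNRNPA1, an abundant hnRNP, went from 125443 to 12694 counts (4.69-fold lower), SF3B3 from 5445 to 501 (-2.36) and HNRNPD from 65373 to 9042 (-1.78). CLK1, the kinase that phosphorylates SR proteins, had 1086 counts in DMSO, 1718 in Reb 1 μM and 4899 in Reb 5 μM (3.25), and the splicing regulators TRA2B (9470 to 25772, 2.52) and TRA2A (2441 to 6443, 2.47), rose as well.

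**Figure D3:**
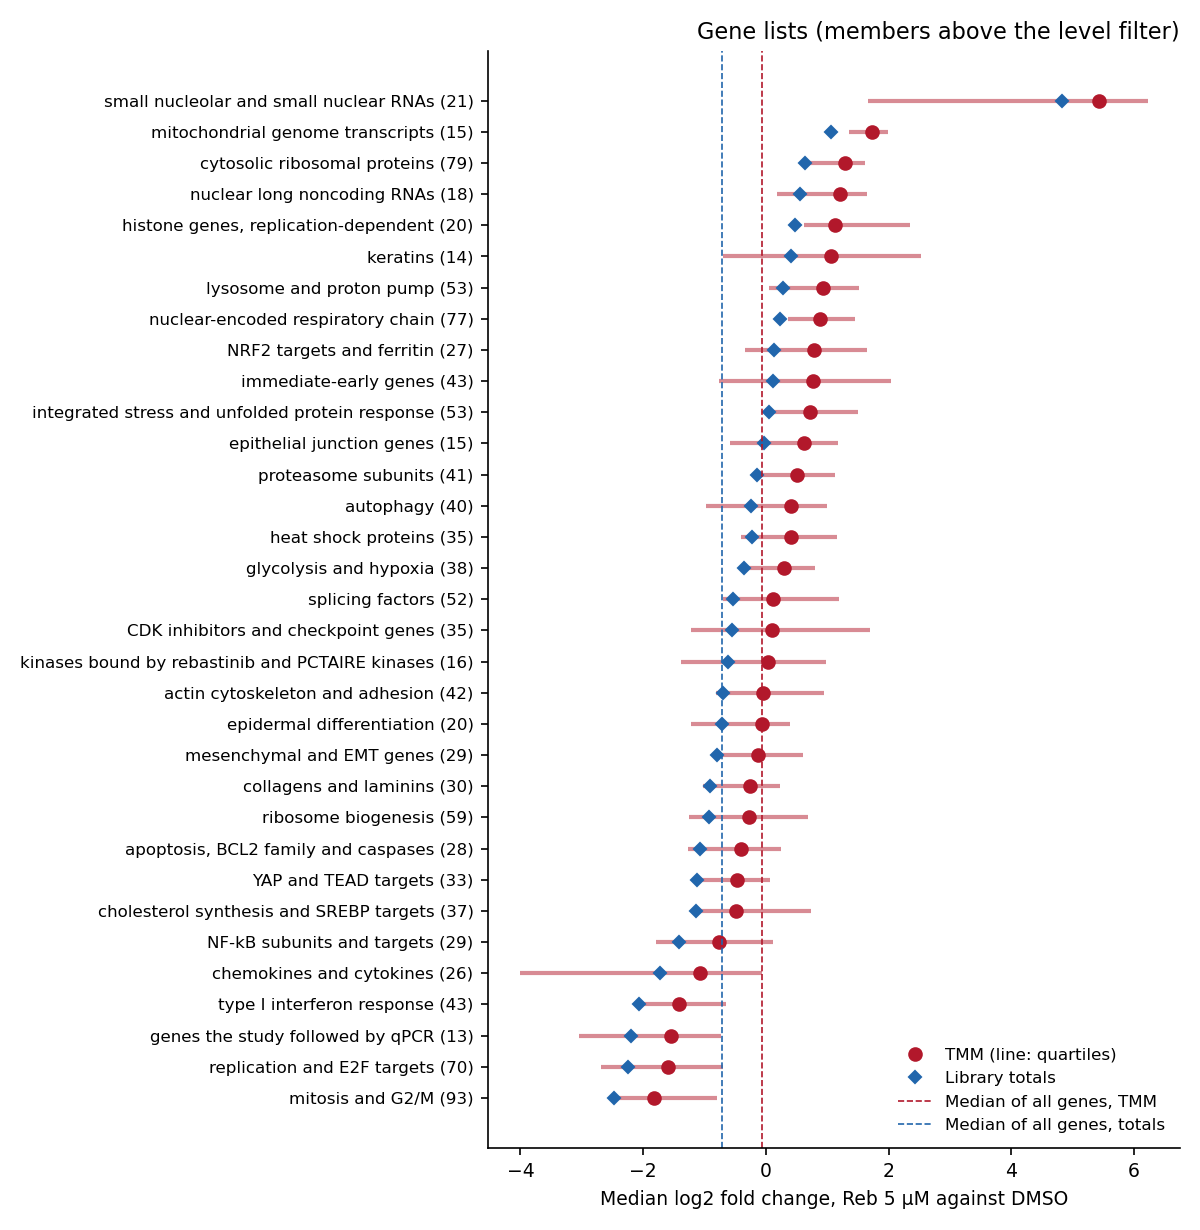
Median log2 fold change of each gene list with at least 10 tested members, Reb 5 μM against DMSO, under TMM (red circles, with lines from the lower to the upper quartile of the members) and library totals (blue diamonds). Dashed lines are the medians of all genes, -0.07 and -0.72. Mitosis and replication lie furthest to the left at this filter of 1 CPM, and small RNAs, mitochondrial transcripts and ribosomal proteins furthest to the right. Of the 21 small RNAs, 13 passed this filter only through the Reb 5 μM library. With no filter the small RNA median stood 1.79 above that of all genes, beside 5.49 with it.

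Mitochondrial transcripts and small noncoding RNAs took more of the Reb 5 μM library. Genes of the mitochondrial chromosome took 7.19% of counts in DMSO, 8.30% in Reb 1 μM and 16.4% in Reb 5 μM. Of its 15 messages and rRNAs 8 rose and none fell. Their log2 fold changes ran from 0.82 for MT-CO3 to 3.66 for MT-RNR2, with a median of 1.72 under TMM and 1.07 under library totals. MT-RNR2, the large mitochondrial rRNA, had 184421 counts in DMSO, 216618 in Reb 1 μM and 1106253 in Reb 5 μM, a gain of 2.57 percentage points of the library. MT-ND4 went from 555411 to 1052765 counts (2.00) and MT-CO1 from 307736 to 482668 (1.72). Overlapping mitochondrial genes share reads, so the split between neighbours is uncertain. The largest losses of share were those of HNRNPA1 and of abundant genes that stayed within 2-fold under TMM, NCL (-0.27), PLEC (-0.47), MYH9 (-0.15) and ACTB (-0.41).

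Small nuclear and nucleolar RNAs were among the largest rises. Of 53 found, 21 were above the filter, a filter that 13 of them passed only through the Reb 5 μM library, so their count and median say nothing of the other 32. RNU5A-1, a U5 spliceosomal RNA gene, had 4 counts in DMSO, 10 in Reb 1 μM and 3855 in Reb 5 μM (10.24, interval 9.63 to 12.86). SNORD3A, a U3 gene of rRNA processing, had 30, 94 and 4514 (8.18) and its near-identical copy SNORD3B-2 6, 6 and 1151 (8.12). RN7SL1 and RN7SL2, the RNA of the signal recognition particle, had 162 and 137 counts in DMSO, 170 and 158 in Reb 1 μM, and 983 and 1888 in Reb 5 μM. RNU4-2 had 0, 0 and 140, at least 98.3-fold higher against a floor of 3 counts. RPPH1, the RNA of RNase P, with 844, 908 and 493 counts (0.30), and SNORA63 (-0.34) did not pass 2-fold, and SNORA73B fell from 109 to 25 (-1.01). Members of the U3, U5 and 7SL families share sequence, so the split between copies is uncertain. All small RNA genes together took 0.0794% of counts in DMSO, 0.0744% in Reb 1 μM and 0.173% in Reb 5 μM.

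**Figure D4:**
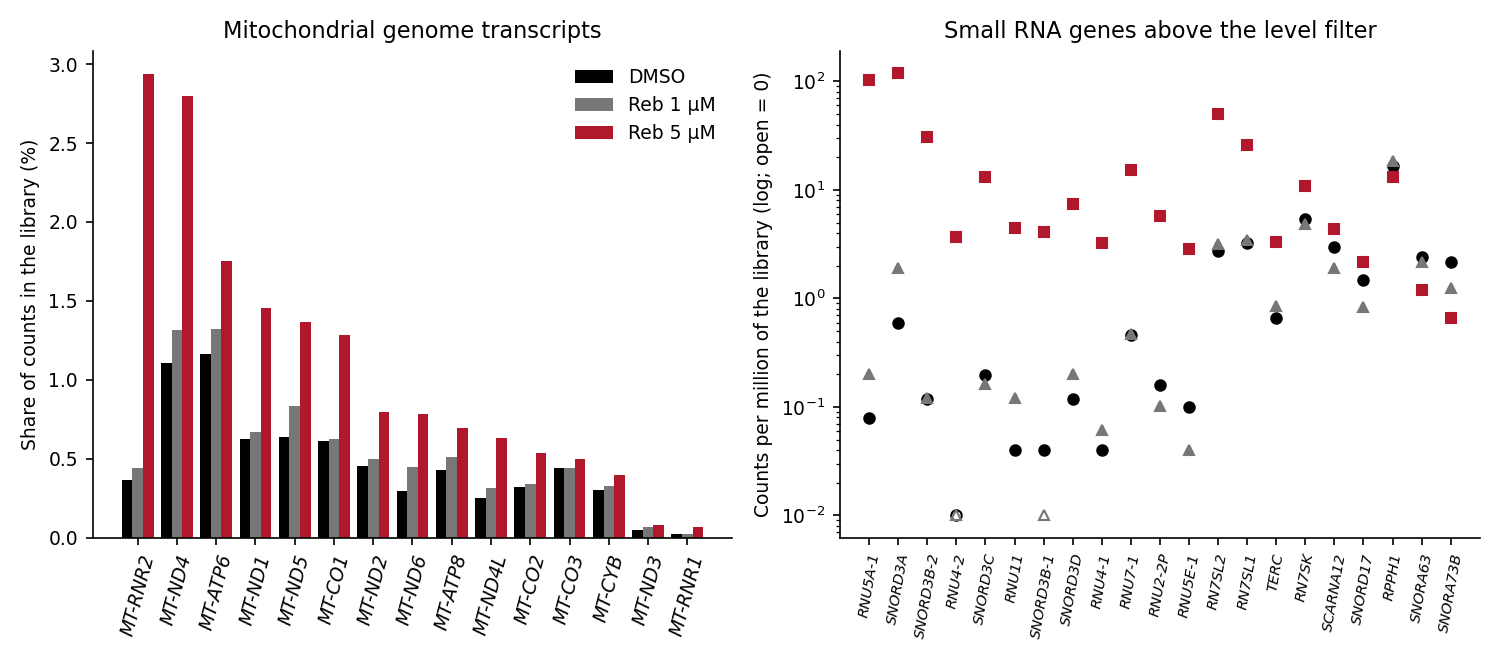
Left, share of each library's counts (%, bars from 0) taken by 15 mitochondrial transcripts in DMSO (black), Reb 1 μM (grey) and Reb 5 μM (red). Right, CPM by library totals (log axis) of the 21 small RNA genes above the filter, in the same colours with open symbols at a count of 0. The red bars are the highest for each mitochondrial transcript, and the red squares stand far above the rest for the U5, U3, U4, U7 and 7SL genes.

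Replication-dependent histone genes, whose messages lack a poly(A) tail, gave 6 risen and none fallen of 20 tested, with 33 more below the filter (median 1.13). HIST1H4C had 2 counts in DMSO, 24 in Reb 1 μM and 320 in Reb 5 μM (log2 interval 6.53 to 11.45), and HIST2H2BE 76, 32 and 246 (2.73). HIST1H1C, a linker histone, had 7907, 3610 and 7738 (1.04). Of the 6 risen, 5 were under 1 CPM in DMSO, and the median stood 1.20 above that of all genes, or 0.58 with a mean of at least 5 CPM. Of 18 listed long noncoding RNAs, 5 rose and 2 fell (median 1.21). NORAD went from 15935 to 31137 counts (2.04), SNHG15 was higher by 2.44 on the log2 scale, and MIR22HG went from 792 to 99 (-1.91). The part that RNA quality or RNA amount plays in these values was not tested.

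Among protein-coding genes the largest rises, with a mean of at least 5 CPM, began from near 0 in DMSO. EID3, a single-exon gene of the SMC5/6 complex (chromosome 12, 104303739 to 104305205), had 5 counts in DMSO, 13 in Reb 1 μM and 2927 in Reb 5 μM (9.64, interval 9.04 to 11.89). RASD1, a dexamethasone-induced RAS family gene, had 30, 36 and 3585 (7.85, interval 7.46 to 8.55), HUS1B, a single-exon relative of the checkpoint clamp gene HUS1, 4, 14 and 525 (7.37), and ZNF420, a zinc finger gene, 78, 118 and 2069 (5.76). ARRDC4, an arrestin-domain relative of TXNIP, had 42, 66 and 948 (5.48), and KLHL11 160, 236 and 2629 (5.09). In each of these genes the 1 μM library lay far nearer to DMSO than to Reb 5 μM. Outside protein-coding genes the list also held CTD-3222D19.4 with 0, 0 and 725 counts (at least 509-fold higher against a floor of 3 counts), RP11-102M11.1 with 16, 4 and 4020 (8.82), and the pseudogenes CHMP4BP1 (25, 30 and 4415) and AP000580.1 (1, 7 and 527, log2 interval 7.63 to 15.42), whose counts are uncertain because parent genes share their sequence.

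The other genes among the 10 furthest below DMSO were not of 1 pathway. SH2D2A, a T cell adaptor, went from 1186 counts in DMSO and 239 in Reb 1 μM to 9 in Reb 5 μM (-5.78). EPHB4, a receptor kinase for ephrin-B2, went from 3032 and 2515 to 40 (-5.12), BTN2A2, a butyrophilin, from 1969 and 1616 to 22 (-5.33), ARHGAP30, a small GTPase activator, from 9587 and 6297 to 164 (-4.78), ZSWIM4 from 663 and 119 to 9 (-4.94), and NT5DC4 from 518 and 326 to 7 (-4.90). SH2D2A and ZSWIM4 were already low at 1 μM, and EPHB4 and BTN2A2 were near DMSO there.

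Fold changes also ran with properties of the genes. With protein-coding genes cut into 5 equal groups by GC content of the longest transcript, the median log2 fold change went from 0.40 in the lowest group (median GC 38.5%) through 0.15, -0.13 and -0.53 to -0.64 in the highest (61.5%). The mitotic list, with a median GC of 44.2%, and the replication list, with 45.3%, lie in the group with a median of 0.15 under TMM, of which 22.5% fell and 12.9% rose. By mean level, the medians went from -0.56 in the lowest group to 0.56 in the highest. The ribosomal protein list, with a median of 271 CPM, lies in the highest group, of which 14.8% fell and 17.9% rose. The respiratory chain list (36.6 CPM), the mitotic list (57.9 CPM) and the replication list (37.8 CPM) lie in the group below it. That group had a median of 0.05, with 23.2% fallen and 10.9% risen. By merged exon number, in classes set after the values were seen and without HIST genes, the median was 0.20 for 253 single-exon genes and -0.33 for 2400 genes with at least 21 exons, with 17.4% and 6.25% risen. Among the 50 largest protein-coding rises 8 genes had at most 2 exons, and among the 50 largest falls 1 had, beside 4.25% of the 9915 ranked. The mitotic and replication lists have medians of 15 exons, beside 9 for all genes. With the trends over GC content and exon number removed, the mitotic list stood 1.84 below all genes and the replication list 1.44, beside 1.75 and 1.52 with the trends left in.

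**Figure D5:**
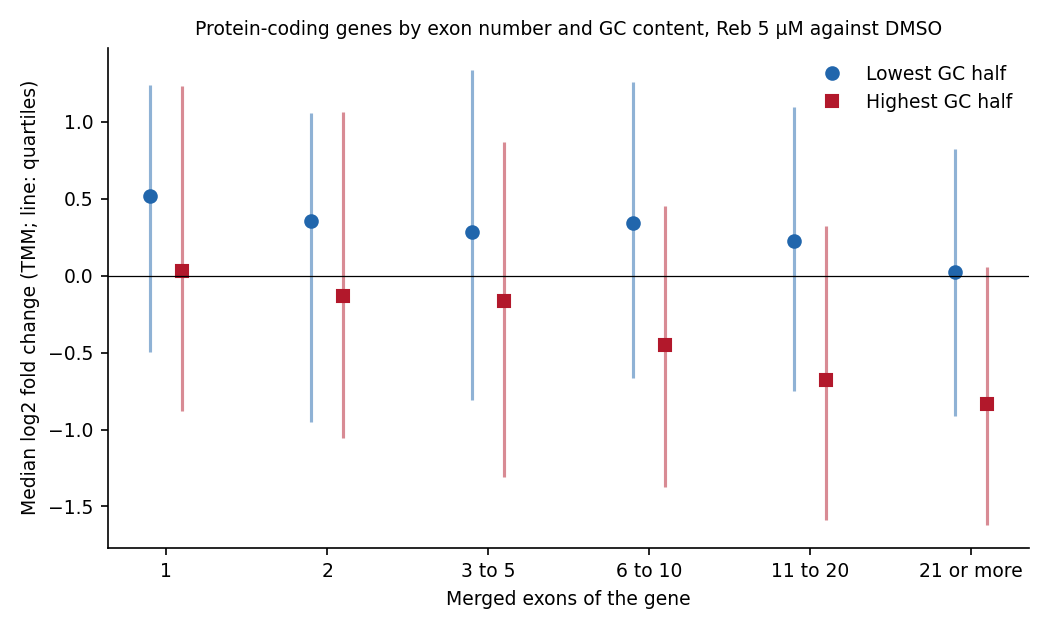
Median log2 fold change (y axis, TMM, lines from the lower to the upper quartile) of protein-coding genes without HIST genes, by merged exon number (x axis), for genes below (blue) and above (red) the median GC content. In both the medians are lowest in the class with the most exons, at 0.03 and -0.83, and the red points lie below the blue ones in each class.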

How the data were processed

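Stranded mRNA libraries were compared, with 1 library per group, so no test was run. The submitters' processing notes name Trimmomatic, featureCounts, Subread 1.5.1 and GRCh38. The aligner, the annotation and the strand setting of the counting are not given in the sources used here. The authors deposited whole-number counts per gene symbol, without normalization, and RPKM values that divide these counts by gene length and library total.

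Log2 fold changes were computed from the counts as CPM with a prior count of 2 and TMM factors from edgeR 4.0.16 (R 4.3.3) over both libraries and, beside them, with library totals. The filter was a mean of at least 1 CPM. The code was tested on simulated data. Alternatives were DESeq2 1.42.0 size factors, TMM over 3 libraries, totals without mitochondrial transcripts, prior counts of 0.5 and 5, the RPKM with 0.1 added, protein-coding genes only, other filters and a threshold of 4-fold. Removing GC and exon trends and leaving out single-exon genes were added after seeing the data.

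Symbols were matched to GENCODE 29 for 99.0% of tested genes, and 22 tested symbols had been turned into dates and match no list. Genes named are the markers and qPCR genes, the 10 largest falls and rises with a mean of at least 5 CPM by library totals, overall and among protein-coding genes, the 5 largest gains and losses of library share, and up to 4 members of each list in each direction. Any other gene was chosen after its values were seen. Some genes are not reported here. The members and lists were chosen with earlier results of these data known.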

Additional observations from a re-analysis of the deposited data

How the results depend on the processing

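No paired analysis was possible because each group had 1 library, and leaving out a replicate was likewise not possible, so neither the spread between cultures nor that between libraries is known. A gene with few counts is limited by depth, as its interval shows. Of 15544 genes, the number at least 2-fold lower, 4225 under TMM, was 6619 under library totals, 6361 from the authors' RPKM, 7521 of 30196 with no filter on low counts, 2783 of 11133 with a mean of at least 5 CPM and 1553 at 4-fold. The number at least 2-fold higher, 3672, was 1935 under library totals, 2240 under library totals without mitochondrial transcripts, 1834 from the RPKM, 8750 of 30196 with no filter and 1318 at 4-fold. The other alternatives kept both within 1.5 times. Of 211 named genes 203 were past 2-fold, and 202 of these stayed past it on the same side in every alternative run for them. List members were named for being past 2-fold under both scalings, and others for being among the largest changes. The count was therefore largely set by that choice and says nothing of the genes not named.

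For list medians less the median of all genes, 31 of 438 values over 37 lists moved by more than 0.25, and none of the medians past 2-fold changed sign. Among those that moved, collagens, cholesterol genes, metallothioneins, splicing factors and kinases changed sign from -0.19, -0.42, 0.66, 0.19 and 0.10. With GC and exon trends removed, a choice made after seeing the data, the medians were 0.90 for histones, 1.62 for keratins, 1.15 for junction genes, 0.28 for collagens, 0.031 for cholesterol genes, -0.21 for metallothioneins, 0.66 for glycolysis, 1.11 for ribosomal proteins, 0.91 for mitochondrial transcripts, -0.17 for splicing factors, 0.63 for kinases, 0.60 for actin genes, 0.65 for long noncoding RNAs, 4.60 for small RNAs, -0.96 for the qPCR genes and -0.028 for luminal markers. Without single-exon genes histones stood at 0.94. With no filter, keratins stood at 1.38, epidermal genes at 0.37, junction genes at 0.40, NRF2 targets at 0.18, metallothioneins at -0.0834, kinases at -0.19 and small RNAs at 1.79. With a mean of at least 5 CPM, histones stood at 0.58, keratins at 0.53, junction genes at 0.24, chemokines at -3.28 and kinases at 0.40. Small RNAs stood at 5.74 with a prior count of 0.5 and 4.99 with 5. The cause of these moves was not tested.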
